A study of Mus musculus with 13 samples.

Results

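Globins are the protein chains of haemoglobin. The 7 mouse globin genes of the alpha and beta clusters, Hba-x, Hba-a1, Hba-a2, Hbb-y, Hbb-bh1, Hbb-bt and Hbb-bs, were taken by symbol out of the 27998 genes of the count matrices and followed over the ages, genotypes and libraries of a developing skin study. All 7 were present in the gene list and all 7 passed the filter on low counts in the fits of erythroid barcodes and of other cells. The first red blood cells of the mouse embryo arise in the yolk sac and make haemoglobin from the embryonic chains encoded by Hba-x, Hbb-y and Hbb-bh1. Red cells made later in the fetal liver use the adult alpha genes Hba-a1 and Hba-a2 and the adult beta genes Hbb-bt and Hbb-bs, so that circulating blood passes from embryonic to adult globin during gestation. In suspensions of tissue these genes are read mostly from blood cells and from free RNA that enters the droplets of other cells, although globin chains have also been reported in some other cells, endothelial cells and keratinocytes among them.

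The suspensions were made from C57BL/6 mice, wild type (WT) or Grhl3-/- (KO), a deletion of the transcription factor gene Grhl3 that blocks formation of the epidermal barrier. WT and KO animals of 1 age were littermates, so the ages came from different litters. A difference between ages is therefore also one between litters. A disc of whole back skin at the forelimb level, away from the spina bifida of the mutants, was digested at embryonic days E14.5 and E16.5, whereas at birth (P0) the epidermis was first peeled from the dermis. Dead cells were removed and droplets were read by 3′ 10x Chromium sequencing, in which each unique molecular identifier (UMI) counts 1 captured RNA molecule, with 2 libraries per genotype and age and 1 further P0 WT library made with the older v1 chemistry. The v1 library has no replicate, and nothing in the labels of the others names a shared culture or day beyond the litter.

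The 13 libraries held 97363 barcodes and 49245953 to 107038146 UMIs each, and pairs of libraries shared 0 to 131 barcode sequences (median 73.5). Grhl3 itself, summed over all barcodes, was at 7.60 and 8.34 UMIs per 1000000 (CPM) in P0 WT and 2.45 and 2.84 in P0 KO, and at 3.94 and 6.80 in E16.5 WT and 1.58 and 0.915 in E16.5 KO. At E14.5 it was at 4.49 and 7.13 CPM in WT and 4.46 and 9.75 in the libraries labelled KO, so that it did not separate the genotypes there. Every E14.5 genotype comparison below is therefore between libraries by label. The same holds for every comparison of E14.5 with E16.5 in KO and for the interaction of age and genotype. Each pair was described as a male and a female embryo or pup. The female transcript Xist exceeded 100 CPM in 4 libraries and the Y-linked Ddx3y exceeded 20 CPM in 9. Only the E14.5 WT and the E16.5 KO pairs held both kinds.

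All positions are those of GRCm38, the assembly of the mm10 build named in the submitters' processing notes, and all 7 genes are annotated as protein coding. The beta genes lie on the minus strand of chromosome 7, with Hbb-y at 103851749 to 103853216, Hbb-bh1 at 103841637 to 103843164, Hbb-bs at 103826534 to 103828096 and Hbb-bt at 103812524 to 103813996. Read along the strand, the embryonic genes Hbb-y and Hbb-bh1 come before the adult genes Hbb-bs and Hbb-bt. The alpha genes lie on the plus strand of chromosome 11, with Hba-x at 32276400 to 32278116, Hba-a1 at 32283511 to 32284465 and Hba-a2 at 32296489 to 32297298. Along the strand, the embryonic Hba-x is again ahead of the adult genes.

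Because Hbb-y fell most between E14.5 and E16.5 and Hba-a2 fell while its near copy Hba-a1 did not, the stretch of 140 bases that ends 10 bases before the RefSeq start of each is shown, 5′ to 3′ on the coding strand (RefSeq, GRCm38.p6; Hbb-y chr7:103853218-103853357, minus strand, and Hba-a2 chr11:32296342-32296481, plus strand). Capitals mark the CCAAT box, the CACCC box and TATAA, or their reverse complements, as found by a search of both strands.
Hbb-y: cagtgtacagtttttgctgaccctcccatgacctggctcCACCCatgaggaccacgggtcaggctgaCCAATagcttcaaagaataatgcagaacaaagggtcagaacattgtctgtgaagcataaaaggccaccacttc
Hba-a2: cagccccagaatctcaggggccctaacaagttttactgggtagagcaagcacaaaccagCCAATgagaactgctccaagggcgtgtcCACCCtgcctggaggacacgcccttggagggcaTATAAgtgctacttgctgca

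In Hbb-y the CCAAT began 83 bases and the CACCC 111 bases before the start. In Hba-a2 they began 91 and 63 bases before it, and TATAA 30 bases before it. Of the 6 members in the promoter table, 5 held CCAAT in the 150 bases before the start, against 24.5% of all 32851 promoters of that length, 6 held CACCC (37.4% of all) and 5 held TATAA (14.2%), the exception being Hbb-y. GATAA was found in 1 of the 6, Hba-x (13.3% of all). The 150-base windows of Hba-a1 and Hba-a2 aligned with 147 identical, 0 differing and 6 gap positions, whereas those of Hbb-bt and Hbb-bs had 35 differing positions. Such matches describe letters only.

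The transcripts bear on what a 3′ read can tell. Over the last 500 bases, the Hba-a1 and Hba-a2 transcripts aligned with 483 identical positions, 1 differing position and 32 gap positions, and 14.2% and 18.8% of their 50-base windows near the 3′ end were found in only 1 of the pair. For Hbb-bt and Hbb-bs, 461 positions were identical, 36 differed and 45.6% and 45.3% of windows were unique. Hbb-y and Hbb-bh1 had unique windows throughout (100%). The counts of each adult pair are therefore uncertain, both in their division and in their sum, since reads that match both copies cannot be assigned. Hba-x was not compared with the other genes in this way.

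Barcodes were called erythroid from genes other than globins: 3 or more of the 15 measured red cell markers (such as Alas2, the first enzyme of haem synthesis, and Slc4a1, the anion exchanger of the membrane). At E14.5 this gave 203 and 277 barcodes in WT and 195 and 252 in the libraries labelled KO. At E16.5 it gave 317 and 484 in WT and 690 and 686 in KO. At P0 the peeled epidermis gave 0 to 3 per library, too few to be summed as a group. These barcodes made up 3.41% of all barcodes on average at E14.5 and 6.53% at E16.5, a difference of 3.12 percentage points that did not pass an exact two-sided permutation test over 4 libraries against 4 (p = 0.114). With red cells taken by globin share (defined further on), the difference was 13.5 points (p = 0.0286 by the same permutation), and inside the study's limits it was 0.185 points (p = 0.40 by permutation). Most were far below the study's lower limit of 600 genes per cell, which with its other limits kept only 29 to 109 of them in a library. Globin took 69.2 and 80.1% of their UMIs in E14.5 WT, 74.8 and 69.5% in the libraries labelled KO, 79.2 and 80% in E16.5 WT and 83.5 and 79.1% in E16.5 KO. The ages overlapped in total globin.

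**Figure D1:**
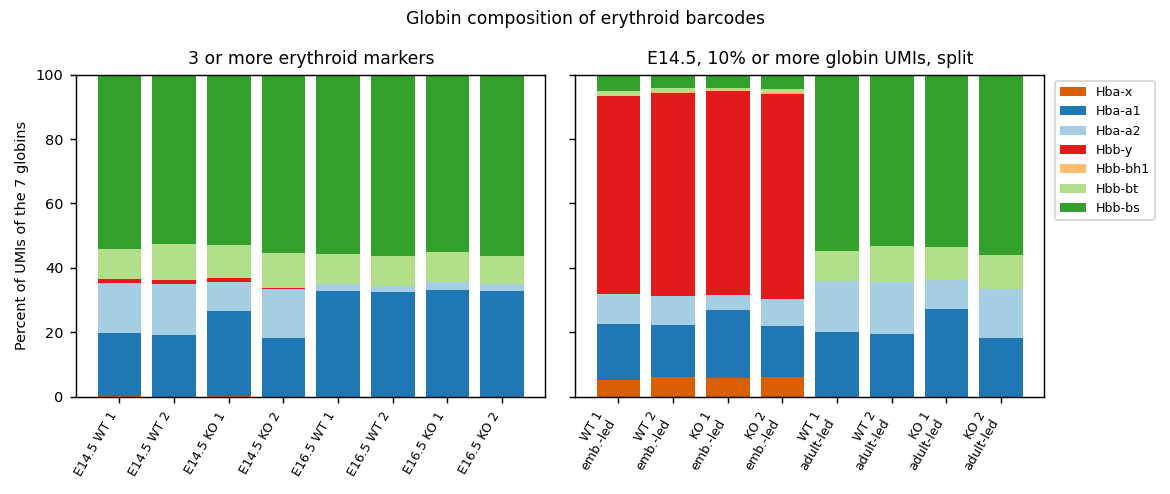
Stacked bars give each globin gene's percentage (vertical axis) of the UMIs of the 7 globins in each E14.5 and E16.5 library, with replicates drawn separately and no error bars. The erythroid barcodes show Hba-a2 at 9.15 to 16% at E14.5 and 1.96 to 2.22% at E16.5, with Hba-a1 higher at E16.5, and the embryonic-led barcodes of E14.5 are dominated by Hbb-y.

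The embryonic globins were nearly lost from red cells between E14.5 and E16.5, in WT and in the libraries labelled KO. Hba-x, the zeta-like embryonic alpha chain, had 1870, 2574, 1832 and 1189 UMIs in the erythroid barcodes of E14.5 WT 1, WT 2, KO 1 and KO 2, and 1, 1, 5 and 2 UMIs in the same order at E16.5. In levels, these were 1066, 949, 1063 and 512 CPM against 0.391, 0.253, 0.771 and 0.353 CPM. Every E14.5 library lay above every E16.5 library, and the lowest E14.5 value was that of the second library labelled KO. In WT, 4444 UMIs at E14.5 against 2 at E16.5 gave a ratio per UMI sequenced of 3240, with a 95% counting interval of 897 to 26800. In KO, 3021 against 7 UMIs gave 1300 (629 to 3230). In the edgeR quasi-likelihood fit over 7261 genes, Hba-x fell by 11.15 on the log2 scale in WT (SE 0.68, adjusted p = 1.54e-05) and by 9.68 in KO (SE 0.60, adjusted p = 1.73e-05). Intervals here and below cover counting error only. Those of Hba-x treat each UMI as independent, whereas only 9.36, 9.39, 9.23 and 7.14% of the E14.5 erythroid barcodes held any Hba-x. They therefore leave out the spread between barcodes and are too narrow.

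Hbb-y, the embryonic beta chain of the primitive red cell, was the most abundant embryonic globin. It had 8888, 8502, 8927 and 3464 CPM in E14.5 WT 1, WT 2, KO 1 and KO 2 and 2.34, 1.77, 1.08 and 2.12 CPM at E16.5, where it was left with 6, 7, 7 and 12 UMIs. It fell by 11.69 (SE 0.69, adjusted p = 1.54e-05) in WT and by 11.28 (SE 0.67, adjusted p = 1.73e-05) in KO on the log2 scale of the edgeR fit. Hbb-bh1, the other embryonic beta gene, was far lower to begin with and fell less far. Its levels were 75.3, 182, 222 and 207 CPM at E14.5 and 3.52, 6.57, 5.86 and 8.64 CPM at E16.5, and the log2 change was -4.37 (SE 0.57, adjusted p = 0.00297) in WT and -4.20 (SE 0.53, adjusted p = 0.00475) in KO. At E14.5 Hbb-y exceeded Hbb-bh1 in each library, whereas at E16.5 Hbb-bh1 was the higher of the pair in each, by a few CPM.

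Of the adult genes, only Hba-a2 passed the test between ages, which also differ in litter. It held 107206 and 128232 CPM in E14.5 WT and 68417 and 105462 CPM in the libraries labelled KO, and 16555, 15664, 18518 and 16407 CPM in the 4 E16.5 libraries. Hba-a2 fell by 2.54 on the log2 scale in WT (SE 0.33, edgeR adjusted p = 0.00283) and by 1.56 in KO (SE 0.32, adjusted p = 0.0414). Hba-a1 held 136538, 151959, 197880 and 126345 CPM at E14.5 and 260665, 260383, 277976 and 259480 CPM at E16.5, with no overlap between ages. Its log2 changes of 1.19 (SE 0.36, adjusted p = 0.182) in WT and 1.43 (SE 0.36, adjusted p = 0.0942) in KO missed the threshold. The sum of both adult alpha genes stayed at nearly the same share of globin UMIs throughout, 35.2, 35.0, 35.6 and 33.3% at E14.5 and 35.0, 34.5, 35.5 and 34.9% at E16.5.

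The adult beta genes passed no test between ages with all libraries in the edgeR fit. Hbb-bs, the main adult beta chain, made up 54.0, 52.6, 52.8 and 55.4% of globin UMIs at E14.5 and 55.7, 56.3, 55.1 and 56.4% at E16.5. Hbb-bt, the lesser one, made up 9.34, 11.2, 10.3 and 10.7% and then 9.30, 9.16, 9.45 and 8.72%. Their log2 changes were 0.50 (SE 0.31, edgeR adjusted p = 0.603) and 0.23 (SE 0.34, adjusted p = 0.87) in WT and 0.94 (SE 0.31, adjusted p = 0.202) and 0.70 (SE 0.34, adjusted p = 0.394) in KO.

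Over the 7 members, 4 were lower and 0 higher at E16.5 in WT, and the same 4 were lower in KO. Among all 7261 genes tested, 0.358% were called lower and 1.1% higher in WT, and 0.234% lower and 1.28% higher in KO. The median log2 change over all genes was -0.01 in WT and -0.02 in KO. Hba-a2 was the least stable call: it was lost in WT without E16.5 WT 2 (log2 change -2.53, adjusted p = 0.0731) and in KO without any 1 of the 4 KO libraries (-1.88 to -1.31 at adjusted p = 0.0852 to 0.378), without E16.5 WT 1 (adjusted p = 0.0638) or without E16.5 WT 2 (adjusted p = 0.0675), which share the fit. It was also lost in KO with 4 or more markers (-1.51, adjusted p = 0.0654), without possible doublets (-1.06, adjusted p = 0.196) and with the replicate number as a block (-1.53, adjusted p = 0.0869), while with barcodes inside the study's gene limits it was the only call left (-3.61, adjusted p = 0.00153 in WT). There the embryonic genes kept large differences that missed the threshold: in WT Hba-x at -12.15, Hbb-y at -11.54 and Hbb-bh1 at -5.32 (adjusted p = 0.163 to 0.218) and in KO -7.67, -9.48 and -5.39 (adjusted p = 0.149 to 0.431). Without 1 library at a time they stayed called, and those that moved by over 1.5 times were Hbb-bh1 in WT (-3.12 without E14.5 WT 2, -5.02 without E14.5 WT 1 and -4.97 without E16.5 WT 2), Hba-x in KO (-8.90 without E14.5 KO 1, -10.52 without E16.5 KO 1 and -9.09 without E16.5 KO 2) and Hbb-y in KO (-10.28 without E14.5 KO 1 and -11.88 without E14.5 KO 2). Hba-a1 was called higher by DESeq2 in both genotypes (adjusted p = 0.0348 in WT and 0.00417 in KO), and in KO Hba-a1 and Hbb-bs were called higher without either E14.5 WT library (adjusted p = 0.0176 to 0.0268). Without a filter on low counts, both adult beta genes were called higher in KO (Hbb-bs at adjusted p = 1.86e-05 and Hbb-bt at 0.0121 in edgeR). Markers of other cells moved with age in these barcodes. The 10 keratinocyte markers summed to 451.8 to 4566 per 1000000 non-globin UMIs at E14.5 and 3595 to 23710 at E16.5 with none at 0, and the 8 mesenchymal markers to 5652 to 10140 and 10120 to 17790. Their part in the globin values was not tested.

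Shares within each chain type do not depend on the total. Embryonic genes made up 1.59% (SD 0.39, n = 4) of beta-like UMIs in E14.5 erythroid barcodes and 0.00153% at E16.5, and Hba-x 0.348% (SD 0.0665, n = 4) and 0.000155% of alpha-like UMIs. Both differences had p = 0.0286 in the exact two-sided permutation test, the smallest p that 4 libraries against 4 allow. Under the other rules for red cells the E14.5 means ran from 0.896% inside the study's limits to 6.17% by globin share for the embryonic beta genes, and from 0.166 to 1.07% for Hba-x, with the same permutation p. In the sum over all barcodes of a library, where no cell is selected, the embryonic beta share went from 6.26% to 0.00453% and the Hba-x share from 1.10% to 0.00511%, each again at p = 0.0286 by exact permutation. Summed over a library, fewer cells with embryonic globin and less of it per cell cannot be told apart.

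Between genotypes, no member passed the threshold in the marker-defined erythroid barcodes. There 0 of 7 were called between KO and WT at E14.5, against 0.0275% of all genes, or at E16.5, against 0.165%. The E14.5 log2 differences ran from -0.70 for Hba-a2 to 0.41 for Hbb-bh1 (edgeR adjusted p = 0.612 to 0.998), and those at E16.5 from -0.22 for Hbb-y to 0.98 for Hba-x (adjusted p = 0.943 to 0.988), where Hba-x rested on 2 against 7 UMIs. With globin-rich barcodes in place of the marker rule (defined further on), Hba-x was called higher in E16.5 KO (4.25, adjusted p = 0.00175, on 3 and 5 UMIs in WT and 94 and 122 in KO). Few barcodes carried these UMIs, since 0.227 and 0.305% of globin-rich barcodes held any Hba-x in E16.5 WT and 0.437 and 0.392% in KO. Hba-x is also part of the globin share that chose these barcodes. At an unadjusted p under 0.05, edgeR's quasi-likelihood test picked out 1 member at E14.5, Hba-a2, and 0 at E16.5, against 8.13 and 7.12% of all genes at that threshold, and DESeq2 called 0 members at either age after adjustment. The interaction of age and genotype, with 0.0275% of all genes called, called 0 of 7, with contrasts from 0.17 for Hbb-bh1 to 1.47 for Hba-x. The smallest p was that of Hba-a2 (0.99, edgeR unadjusted p = 0.0464, adjusted p = 0.593), and 8.18% of all genes had an unadjusted p under 0.05 in that contrast. The embryonic beta share, averaged within ages, was 0.244 points lower in KO, with p = 0.611 by exact permutation within ages. The comparisons share libraries: the E14.5 and E16.5 erythroid sums of each genotype enter both the age and the genotype contrasts.

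Per barcode, the E14.5 red cells fell into a class led by embryonic and a class led by adult beta globin. For this the erythroid barcodes were widened to globin-rich ones, with 10% or more of UMIs from globins, of which there were 2204 at E14.5 and 7294 at E16.5. At E14.5, 187 of the 2204 had most of their beta-like UMIs from Hbb-y and Hbb-bh1, and they are called embryonic-led here. They numbered 50, 49, 37 and 51 in WT 1, WT 2, KO 1 and KO 2, or 7.78% (exact binomial 95% interval 5.83 to 10.1), 8.63% (6.45 to 11.2), 8.37% (5.96 to 11.4) and 9.26% (6.97 to 12) of globin-rich barcodes. These intervals all overlapped. Only 4 barcodes lay between 1 and 50% and 6 between 1 and 80%, so that the limit of 50% fell in a gap. At E16.5, 0 of 7294 were embryonic-led, and 1 lay between 1 and 50%. The exact binomial 95% intervals there reached up to 0.278, 0.225, 0.161 and 0.181% in WT 1, WT 2, KO 1 and KO 2. They cover the sampling of barcodes and not the spread between embryos. Free RNA was not told apart from a cell's own at single UMIs, and 30.1 to 47.2% of the E14.5 adult-led barcodes held at least 1 Hbb-y UMI.

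**Figure D2:**
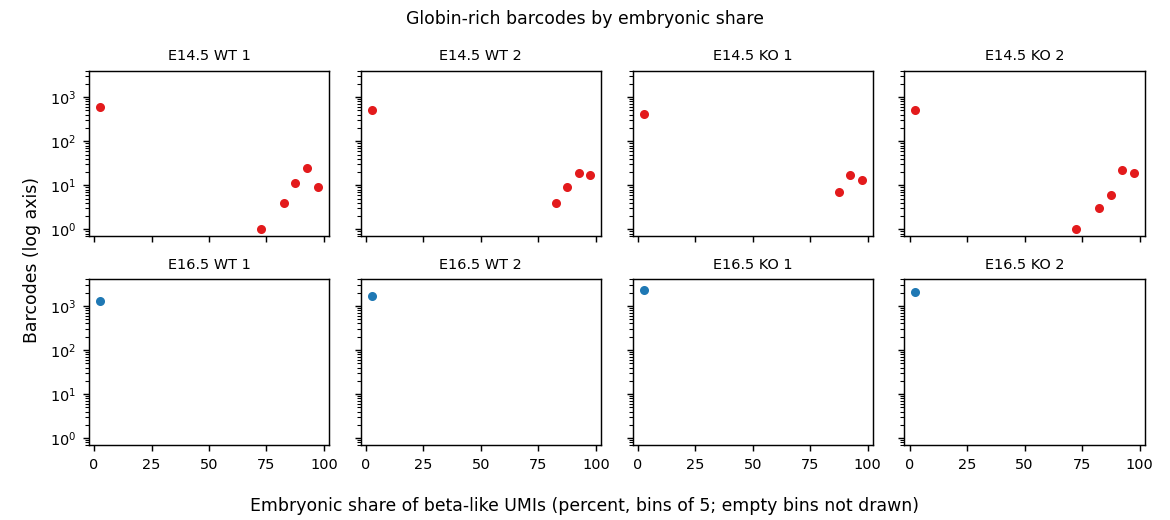
Each panel is 1 library at E14.5 or E16.5, with the embryonic share of beta-like UMIs on the horizontal axis (percent, bins of 5) and the number of globin-rich barcodes per bin on a logarithmic vertical axis. The E14.5 libraries have a second set of barcodes near 90% with few between, and the E16.5 libraries have points only in the lowest bin.

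The values that chose the embryonic-led barcodes are given as a description. Their median embryonic beta share was 92.0, 92.9, 94.3 and 93.8% in the 4 libraries and the lowest barcode of each stood at 73.6, 80, 86.0 and 70.9%. All of them held Hbb-y (100%) and 94.0 to 97.3% held Hbb-bh1, both used in the choice. Hba-x, which was not used, was held by 100% of them and by 4.8 to 6.75% of adult-led barcodes. Embryonic-led barcodes had fewer UMIs in each library: medians were 4900, 6115, 4823 and 4919 in embryonic-led and 5063, 7203, 5784 and 6626.5 in adult-led barcodes, and median genes were 385.5, 432, 320 and 347 against 365, 332, 306 and 357.5. Their median globin share of UMIs was also lower in each, 83.0, 83.7, 84.9 and 85.4% against 87.8, 92.2, 91.2 and 91.2%.

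Summed per library, Hbb-y gave 61.5, 62.8, 63.0 and 63.6% of the globin UMIs of embryonic-led barcodes. The alpha side differed from the beta side, since these barcodes used the adult alpha genes heavily: Hba-a1 gave 17.3, 16.2, 21.1 and 15.7% and Hba-a2 9.15, 8.94, 4.69 and 8.47%. Hba-x gave 5.33, 6.20, 5.99 and 6.20% and Hbb-bh1 0.430, 0.596, 0.373 and 0.568%. The adult beta genes were low, at 5.23, 4.15, 4.07 and 4.43% for Hbb-bs and 1.03, 1.05, 0.755 and 0.995% for Hbb-bt. Hba-x, which the split did not use, made up 16.8, 19.7, 18.8 and 20.4% of alpha-like UMIs in embryonic-led barcodes (mean 18.9%, SD 1.60, n = 4), against a mean of 0.00363% in adult-led ones. All 4 libraries had the same direction, and the exact two-sided sign-flip permutation test over 4 libraries gave p = 0.125, the smallest it allows.

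Levels of red cell genes outside the globins also differed between embryonic-led and adult-led barcodes, which hold markers of other cells too (described further on). Their UMIs were summed per library and class for the 4 E14.5 libraries and fitted in edgeR with the library as a block, giving 5087 genes, of which 1.28% were higher and 2.32% lower in embryonic-led barcodes. Fold changes are relative to the other genes of the fit, whose median was -0.01. Slc25a37, which imports iron into the mitochondria, was at 12.3, 21.8, 25.5 and 22.3 CPM in embryonic-led and 213.7, 240.6, 264.4 and 355.5 CPM in adult-led barcodes, a log2 difference of -4.35 (SE 0.20, adjusted p = 2.18e-08). Alas2, the erythroid enzyme that starts haem synthesis, was at 160, 180, 224 and 270 CPM against 968, 1305, 1310 and 1223 CPM (log2 difference -3.11, SE 0.18, adjusted p = 2.48e-07). No library of 1 class overlapped the other for either gene.

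Of the haem synthesis list, 6 of 9 genes tested were lower and 0 higher, at a list median of -2.15. Besides Alas2 and Slc25a37 these included Fech, the last enzyme of the pathway (-2.90). Of the red cell membrane list, 4 of 9 were lower and 0 higher (median -1.85). Among them were Rhd (-3.32, on 9 UMIs in embryonic-led and 728 in adult-led sums), the cytoskeletal linker Epb41 (-3.02, on 13 and 842) and the anion exchanger Slc4a1 (-2.40, on 26 and 1087). Of the enzymes and chaperones, 7 of 9 were lower (median -1.47), with the glutathione peroxidase Gpx1 at -3.10, Bpgm, which sets the oxygen affinity of haemoglobin through bisphosphoglycerate, at -2.46, and the peroxiredoxin Prdx2 at -0.88. Of the reticulocyte maturation list, 7 of 9 were lower (median -1.94), among them the ubiquitin ligase gene Mkrn1 (-3.80), Ube2l6 (-1.94), Tent5c (-1.51) and the mitophagy receptor Bnip3l (-1.29). The embryonic-led sums were smaller, so a gene could pass the filter on low counts through its adult-led level alone. That tilts these list counts towards lower, and the lists were not counted without the filter.

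Against this direction, Fth1, the heavy chain of the iron store ferritin, was higher in embryonic-led barcodes, at 7384, 7767, 7327 and 8615 CPM against 1695, 1905, 1974 and 2105 CPM (log2 difference 1.46, SE 0.12, adjusted p = 7.67e-06). Its partner Ftl1 (0.48, adjusted p = 0.0913) and the transferrin receptor gene Tfrc (-1.20, adjusted p = 0.49) were not called. Of 7 regulators tested, the haematopoietic factor Tal1 was higher (2.29, SE 0.41, adjusted p = 0.00435) and its partner Lmo2 lower (-1.80, SE 0.28, adjusted p = 0.00159). Tal1 had 44 UMIs in the smaller embryonic-led sums and 69 in the adult-led ones. In CPM these were 46.2, 49.1, 5.09 and 31.8 against 6.11, 2.14, 2.78 and 7.77, with the smallest difference in KO 1. The known repressors of embryonic and fetal globins Bcl11a (-0.02, SE 0.38) and Zbtb7a (-0.41, SE 0.38) and the RNA-binding proteins Igf2bp1 (0.17, SE 0.39) and Igf2bp3 (0.32, SE 0.31) and Ldb1 (-0.28, SE 0.50) were not called, each at a low level.

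**Figure D3:**
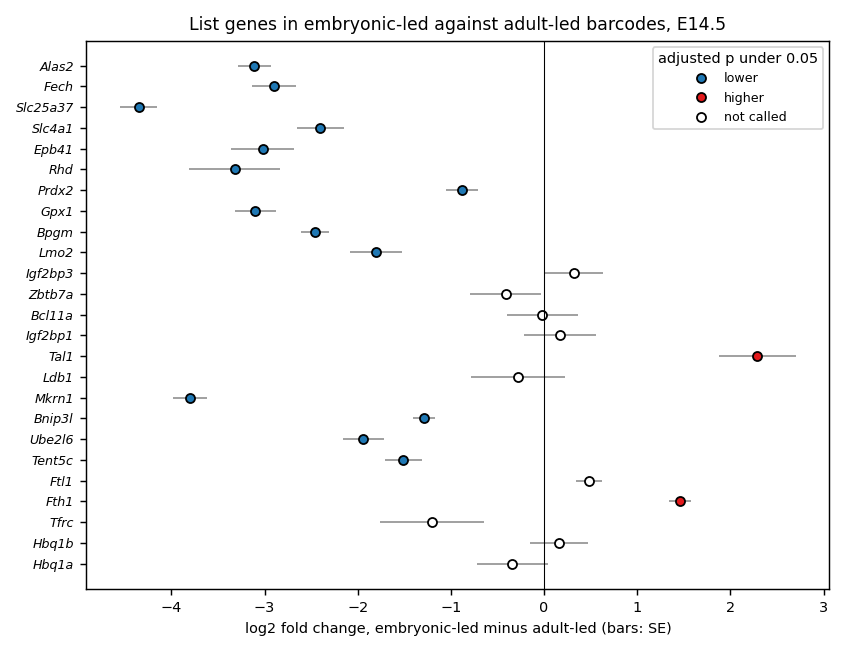
Points give the log2 fold change of named genes other than the 7 globins between embryonic-led and adult-led barcodes of the 4 E14.5 libraries (horizontal axis), with bars of 1 SE and the colour giving the call. Most called genes lie left of 0, down to Slc25a37 at -4.35, and Fth1 and Tal1 lie to the right.

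Markers of other cells were summed in the same barcodes. For scale, keratinocyte and mesenchymal markers together made up 1.02 to 1.09% of non-globin UMIs in the marker-defined erythroid barcodes of E14.5. In the other cells of that age (defined further on) they made up 1.21 to 1.69%. Per 1000000 non-globin UMIs, the 8 mesenchymal markers summed to 6540 to 12560 in embryonic-led and 7157 to 10190 in adult-led barcodes, the 10 keratinocyte markers to 152.6 to 4654 and 524.9 to 5432, the 6 endothelial markers to 100.1 to 569.0 and 184.5 to 511.4, and the 8 myeloid markers to 16.68 to 1682 and 415.2 to 1277. The 7 muscle markers were lower in median in embryonic-led barcodes, 56.21 (50.04 to 178.1) against 273.0 (121.6 to 428.7), with ranges that overlapped. The ranges did not overlap for the 6 mast cell markers (61.46 to 150.1 with 1 at 0, against 432.3 to 1413) and the 15 erythroid markers (568.5 to 1551 with 1 at 0, against 5597 to 9915). The part of skin, mast cell or muscle RNA in these values and in the fold changes above was not tested. Few embryonic-led barcodes therefore met the marker rule above: 4, 7, 6 and 4 held 3 or more markers, against 195, 270, 187 and 241 adult-led ones. The embryonic levels of the marker-defined erythroid barcodes rest on these few. By globin share instead, the embryonic beta share of red cells was 6.17% at E14.5 (SD 0.233, n = 4), against 0.00176% at E16.5.

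The lists of the red cell programme were also counted between the ages in the marker-defined erythroid barcodes. Of the haem synthesis (12 tested), membrane (16), enzyme (10), regulator (16), reticulocyte (9) and iron (5) lists, 0 members were called in either genotype, where 1.46% of all genes were called in WT and 1.51% in KO, and nothing is read from the 0. Each of these lists but iron also holds markers that chose the barcodes, Alas2, Klf1 and Slc4a1 among them, so their levels here depend on that choice. The list medians ran from -0.88 to -0.02 in WT and from -0.72 to 0.49 in KO. Alas2, for example, was at 0.51 (SE 0.31, edgeR adjusted p = 0.588) in WT and 0.79 (SE 0.31, adjusted p = 0.29) in KO, and Klf1, the factor that activates adult beta globin, at -1.63 (SE 0.70, adjusted p = 0.407) and -0.87 (SE 0.53, adjusted p = 0.49). Bcl11a was at 0.56 (SE 0.42) and -0.55 (SE 0.38). The 16 regulators ran from -2.80 for Tal1 to 0.85 for Mbd2 in WT and from -4.06 for Myb (edgeR adjusted p = 0.0872) to 0.76 for Sox6 in KO.

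Among the other globin family genes, the theta-like alpha genes differed from each other. Hbq1a had 46, 36, 18 and 27 UMIs in the erythroid barcodes of the E14.5 libraries and 0 in each of the 4 at E16.5. Its E14.5 mean of 15.4 CPM (SD 7.31, n = 4) was 21.1 times the mean E16.5 floor of 0.73 CPM, set at 3 counts per library. These floors ran from 0.463 to 1.17 CPM, so that ratio is no bound for single libraries. Hbq1a was called lower at E16.5 (edgeR adjusted p = 0.00148 in WT and 0.00323 in KO). Hbq1b, with 56, 59, 28 and 45 UMIs at E14.5 and 48, 107, 180 and 156 at E16.5, was called higher in KO (1.36, SE 0.26, adjusted p = 0.0381) and not in WT (0.20, SE 0.26, adjusted p = 0.841). That difference between genotypes was itself not called (interaction 1.16, SE 0.37, adjusted p = 0.40). Neither theta gene passed the threshold between embryonic-led and adult-led barcodes at E14.5 (Hbq1a -0.34, SE 0.38, and Hbq1b 0.16, SE 0.31). Hbq1a and Hbq1b are near copies, so the split of reads between them is uncertain.

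The balance of the adult alpha genes gave the sharpest age difference in the adult globins. Hba-a1 made up 56.0, 54.2, 74.3 and 54.5% of Hba-a1 and Hba-a2 UMIs in E14.5 WT 1, WT 2, KO 1 and KO 2, and 94.0, 94.3, 93.8 and 94.1% at E16.5. The groups did not overlap (59.8 against 94.0%, a difference of 34.3 points). This comparison was added after the values were seen. Its exact permutation p = 0.0286 is the smallest possible and only restates that lack of overlap. The first library labelled KO at E14.5 stood apart, and without it the difference was 39.1 points. Among adult-led barcodes of E14.5, the 10th to 90th percentiles of the Hba-a1 share over barcodes were 53.4 to 59.4% in WT 1, 52.4 to 57.7% in WT 2, 72.9 to 78.2% in KO 1 and 52.4 to 58.7% in KO 2. Within each E14.5 library the embryonic-led barcodes had a higher Hba-a1 share than the adult-led ones, 65.4, 64.5, 81.8 and 65.0% against 56.2, 54.7, 75.1 and 55.0%, a mean difference of 8.92 points (SD 1.49, range 6.74 to 9.97; exact sign-flip permutation p = 0.125, the smallest possible over 4 libraries). Uneven assignment of shared reads between these copies cannot be told apart from a change in their use, nor age from litter.

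**Figure D4:**
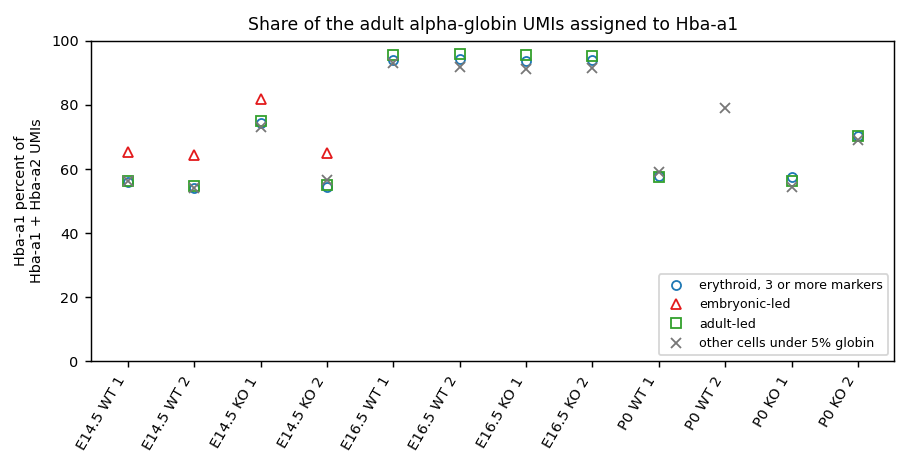
Points give the Hba-a1 percentage of Hba-a1 and Hba-a2 UMIs (vertical axis, from 0 to 100) in each library (horizontal axis) for different sets of barcodes, 1 point per library and set with no error bars. The E16.5 libraries lie above 90% in each set, the E14.5 libraries lie between 54.1 and 81.8%, and E14.5 KO 1 is the highest of that age in each set.

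At P0 the balance was again like that of E14.5 in the few blood cells left. The 8 globin-rich barcodes of the peeled epidermis were adult-led, all with 0 UMIs of Hba-x and Hbb-y, and 1 of them, in P0 KO 1, held 1 UMI of Hbb-bh1. Their ratio of Hba-a1 to Hba-a2 was 1.34, 1.54 and 1.31 in P0 WT 1, 1.35 and 1.23 in P0 KO 1 and 3.06, 1.39 and 2.72 in P0 KO 2. The E16.5 erythroid sums had ratios of 15.7, 16.6, 15.0 and 15.8. With 0, 2 or 3 barcodes per library, no test was made, and tissue and litter differ along with age.

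Globin RNA was also counted in barcodes not called erythroid: those within the study's limits on genes and mitochondrial share with at most 1 erythroid marker. Globin-rich barcodes with few markers fall in this set too, which is called other cells. Globins made up 4241 and 3062 CPM of them in E14.5 WT, 1929 and 2673 in the libraries labelled KO, 7657 and 7713 in E16.5 WT and 13422 and 11350 in E16.5 KO. A few barcodes carried most of it. Those with 5% or more globin, 24 to 55 per E14.5 library and 124 to 186 per E16.5 library, held 57.6 to 80.3% of these UMIs. Without them the levels were 1267, 1232, 794 and 1140 CPM at E14.5 and 1730, 1799, 2752 and 2520 CPM at E16.5. Both ways, the E16.5 libraries lay above the E14.5 ones.

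Hbb-y was lower at E16.5 in these barcodes too, in WT and in the libraries labelled KO. It was at 578, 639, 230 and 352 CPM at E14.5 and 1.38, 2.84, 5.81 and 0.782 CPM at E16.5. Over 17181 genes tested in WT, where 12.7% were higher and 10.6% lower at E16.5, 3 members were higher, Hba-a1 (log2 change 2.12, edgeR adjusted p = 0.000888), Hbb-bt (1.44, adjusted p = 0.00215) and Hbb-bs (1.61, adjusted p = 0.00778). The other 4 were lower, Hbb-y (-8.05, adjusted p = 0.000888), Hba-a2 (-2.35, adjusted p = 0.00272), Hbb-bh1 (-6.09, adjusted p = 0.00905) and Hba-x (-5.46, adjusted p = 0.0173). In KO, against 10.4% higher and 8.25% lower, Hba-a1 (3.29), Hbb-bt (2.51) and Hbb-bs (2.77) were higher and only Hbb-y (-6.39) lower. Hbb-y was at -8.44 without E16.5 KO 1 and at -5.56 without E16.5 KO 2. Hba-x (-2.52, adjusted p = 0.138), Hba-a2 (-0.63, adjusted p = 0.254) and Hbb-bh1 (-0.41, adjusted p = 0.774) were not called in KO.

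Most of the embryonic beta RNA in these other barcodes at E14.5 was held by globin-rich barcodes with too few markers to be called erythroid. At E14.5, 12, 13, 5 and 8 embryonic-led globin-rich barcodes fell in this set and held 85.25, 86.88, 69.07 and 76.74% of its Hbb-y and Hbb-bh1 UMIs. Without barcodes of 5% globin or more, Hba-a1 (1.41, adjusted p = 0.00193), Hba-a2 (-1.90, adjusted p = 0.00433) and Hbb-y (-5.03, adjusted p = 0.00212) were the members still called in WT, and in KO the same 4 as before. Of the calls in WT, Hba-x (-4.79 without E16.5 WT 1 and -6.57 without E16.5 WT 2) and Hbb-bh1 (-5.94 and -6.22) were also lost without either E16.5 WT library (adjusted p = 0.0668 to 0.105) and Hbb-bs without E14.5 WT 2 (adjusted p = 0.053). In KO, Hba-x (-6.51, adjusted p = 0.0119) and Hbb-bh1 (-3.27, adjusted p = 0.019) were called without E16.5 KO 1, and Hba-a2 (-1.10, adjusted p = 0.0447) without E14.5 KO 1.

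Embryonic genes made up 0.797% of beta-like UMIs in the marker-defined erythroid barcodes and 11.0% in other cells, as means over the 8 libraries of both embryonic ages. The marker rule itself placed most embryonic-led barcodes outside the erythroid set, so no test of that difference is given. For globin-rich barcodes and for barcodes under 5% globin, a comparison chosen after seeing the data, the means were 3.09 and 4.78%. Among other cells the embryonic beta share fell from 21.9% at E14.5 to 0.0454% at E16.5, and under 5% globin by 9.23 points, from 9.39 to 0.166% (exact permutation p = 0.0286 for both). The Hba-a1 share of the adult alpha genes there was 58.0, 57.9, 76.3 and 58.0% at E14.5 and 96.8, 96.8, 96.7 and 96.7% at E16.5, so that E14.5 KO 1 stood apart in other cells as in the red cells.

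Under 5% globin, a limit that itself bounds the level, named cell classes of a library lay within 1.57 times of each other. Clusters were named from markers as keratinocyte-, mesenchymal-, endothelial-, mural-, myeloid-, mast-, melanocyte-, Schwann- and muscle-like, and barcodes under 5% globin are described unless another set is named. Across these 9 classes the globin level ranged from 982.9 to 1373 CPM in E14.5 WT 1 and from 2579 to 2857 CPM in E16.5 KO 1, and the highest class was 1.11 to 1.57 times the lowest in the 8 libraries. The embryonic beta share ran from 5.35 to 18.6% over classes and libraries at E14.5 and from 0 to 0.361% at E16.5, without overlap. The Hba-a1 share ran from 48.9 to 76.7% and from 89.4 to 94.9%, and in E14.5 KO 1 each class (70.1 to 76.7%) lay above each class of the other E14.5 libraries (48.9 to 67.4%). When each barcode was thinned to 2000 UMIs, 69.4 to 100% of a class held a globin UMI in each library, and the part of free RNA in these shares was not tested. Keratinocyte-like cells were lower than mesenchymal-like cells by 0.51 on the log2 scale of globin CPM with globin-rich barcodes included (exact sign-flip permutation p = 0.0313 over 8 libraries). That p rose to as much as 0.0625 when 1 library was left out. Under 5% globin, a setting that was not planned, they were lower by 0.17. No test of that difference is given, since the limit uses the compared level itself.

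**Figure D5:**
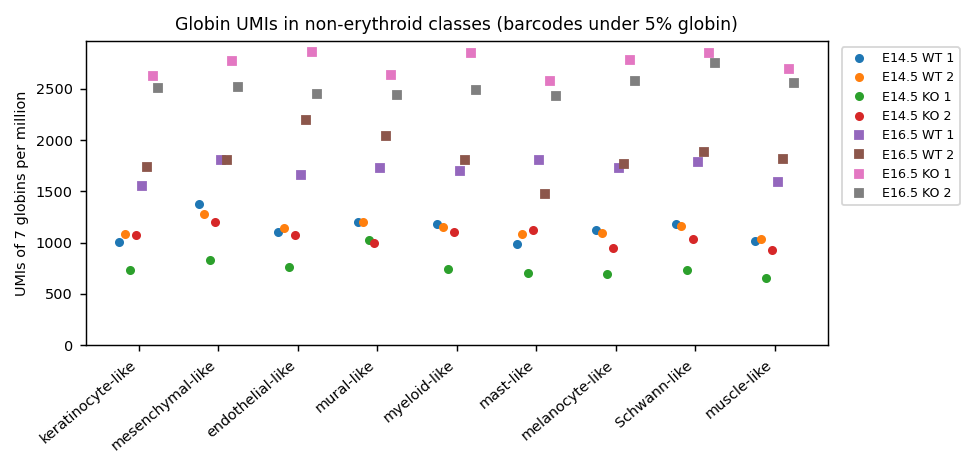
Points give the UMIs of the 7 globins per 1000000 (vertical axis, from 0) in each named cell class (horizontal axis), with 1 point per library and barcodes under 5% globin only. Over classes, the E14.5 libraries lie between 654 and 1373 CPM, the E16.5 WT libraries between 1474 and 2198 CPM and the E16.5 KO libraries between 2432 and 2857 CPM.

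At P0 the peeled epidermis held little globin RNA, at 2.11 and 0.954 CPM in WT, 6.81 and 9.58 CPM in KO and 0.427 CPM in the v1 WT library. Hba-x, Hbb-y and Hbb-bh1 had 0 UMIs in other cells of all 5 libraries, which allows up to 0.0284 to 0.061 CPM. The adult genes were higher in KO than in WT, on 141 and 74 globin UMIs in WT and 718 and 865 in KO: Hba-a1 by 2.01 (SE 0.36, edgeR adjusted p = 0.00262), Hba-a2 by 2.25 (SE 0.66, adjusted p = 0.0267), Hbb-bt by 2.91 (SE 0.47, adjusted p = 0.00163) and Hbb-bs by 2.77 (SE 0.40, adjusted p = 0.000892) on the log2 scale. Of all genes, 17.4% were higher and 16.7% lower in this comparison. Hba-a2 was no longer called without P0 KO 1, P0 KO 2 or P0 WT 2 (adjusted p = 0.0648 to 0.163, with 1.59 without P0 WT 2). Without P0 WT 1 the differences were larger, at 3.32 for Hba-a2, 3.71 for Hbb-bt and 3.67 for Hbb-bs. In the embryo other cells showed 0 of 7 members called between genotypes at E14.5, where 0.297% of genes were called, and at E16.5, where 1.89% were. At an unadjusted p under 0.05 these numbered 1 (Hba-a2) and 3 (Hba-a1, Hbb-bh1 and Hbb-bt), against 12.1 and 13.9% of all genes at that threshold, and DESeq2 called 0 and 1 after adjustment. From E16.5 to P0, the 4 adult genes were lower in both genotypes, with log2 changes from -12.70 to -8.56 in WT and from -11.12 to -7.03 in KO (without P0 WT 1, Hba-a2 was at -9.63, Hbb-bt at -13.49 and Hbb-bs at -13.36 in WT, and without P0 WT 2 Hba-a2 was at -7.89), against 34.3 and 32.9% of all genes called lower. The embryonic genes had 0 UMIs at P0, and of these Hbb-y was also called lower in WT and each of the 3 in KO, where a fitted fold against 0 is no bound and the call of Hba-x was lost without E16.5 KO 1 (adjusted p = 0.0541). Whole skin and peeled epidermis cannot be told apart from age in that comparison.

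Over the sums of all barcodes in the 13 libraries, the genes most like Hbb-y by Pearson's r of log2(CPM + 1) were Rcbtb1 (0.974), Adamtsl1 (0.970), Spats2l (0.970), Coa5 (0.969) and Lix1 (0.967), among 8848 genes. Those most like Hbb-bs were Ebf1 (0.987), Rspo3 (0.983), Kitl (0.972), Col23a1 (0.971) and Col6a3 (0.971). The 13 points fall into 3 ages, and the P0 libraries lack the dermis. Spats2l, for example, went from 99.9 to 108.0 CPM at E14.5 to 52.1 to 65.0 at E16.5 and 44.9 to 52.4 at P0, and Col6a3 from 173.0 to 209.0 to 287.0 to 392.0 and then 0.203 to 4.24 CPM.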

How the data were processed

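The authors deposited, for each library, UMI counts per gene and barcode from Cell Ranger (1.3.1 per the submitters' processing notes) on mm10, before any filter of their own on genes per cell. The deposited counts are raw and libraries were not pooled. All columns were used. Barcodes were called erythroid from 3 or more of 15 measured markers, globin-rich from 10% globin UMIs, embryonic-led from 50% embryonic beta UMIs, and other cells from the study's limits (600 to 4800 genes in embryos, 900 to 7700 at P0, at most 10% mitochondrial) with at most 1 marker. Doublets were not removed, but an alternative left out barcodes with 2% or more keratinocyte and mesenchymal marker UMIs outside the globins. Other cells were clustered with scanpy 1.11.5 (2000 variable genes, 30 components, 20 neighbours, resolution 1).

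Counts summed per library were tested with edgeR 4.0.16 (quasi-likelihood, TMM, filterByExpr, Benjamini-Hochberg at 0.05 over all genes), 1 fit over all replicated groups, with DESeq2 1.42.0, other scaling and other barcode rules as alternatives. Shares were tested by exact permutation over libraries (scipy 1.17.1). The SE of an edgeR log2 change is its absolute value divided by the square root of the quasi-likelihood F statistic. Fits were tested on simulated data. Embryonic-led barcodes were to be taken under the marker rule, which left 4 to 7 per library, under the minimum of 10, so the globin-rich rule is reported. The 7 members and all gene lists were chosen with earlier results of these data known, and the named genes are the members, up to 4 highest members of each list with every detected regulator, and the 5 genes most correlated with Hbb-y and Hbb-bs. Some genes that this rule names are given only in counts and ranges, and a few are not reported here. The p-values measure the spread between these libraries only. CPM includes the globins, whereas fold changes are relative to the TMM-scaled median.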

Additional observations from a re-analysis of the deposited data

Results flagged for a closer look

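Of 24 groups of 4 libraries examined, 2 held a library far from the others, and both are the same library and measure. The first E14.5 library labelled KO had an Hba-a1 share of Hba-a1 and Hba-a2 UMIs of 74.31% in erythroid barcodes, where the nearest library of that age was at 56.02%, a gap of 0.911 of the range over the 4 libraries. In other cells it was at 76.27%, with the nearest at 57.98% and a gap of 0.993 of the range. Each gap is above the limit of Dixon's test for 4 samples, and chance alone flags about 1 in 20 groups. The values of red cells and of other cells come from the same library and are not independent.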

How the results depend on the processing

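With barcodes inside the study's gene limits, 1 member was called between ages in WT and 1 in KO, down from 4 in each, although the embryonic genes kept their direction (-12.15 to -5.32 in WT and -9.48 to -5.39 in KO). The direction of Hbb-bt (-0.45) and Hbb-bs (-0.27) in WT turned, as did the genotype differences at E16.5 of Hba-a1 (-0.02), Hbb-bt (-0.08) and Hbb-bs (-0.04) and the interaction of Hbb-bh1 (-0.07), and 53 genes instead of 183 separated embryonic-led from adult-led barcodes (275 without a filter on low counts). With red cells defined by globin share, the erythroid share of barcodes rose by 13.54 points (exact permutation p = 0.0286), 1 member was called between genotypes at E16.5 and 1 in the interaction (Hba-x in both), and the direction turned for Hbb-bt with age in WT (-0.02), for Hba-x (0.08), Hba-a1 (0.22), Hbb-y (0.03) and Hbb-bs (0.03) between genotypes at E14.5 and for Hbb-y at E16.5 (1.62). With 4 or more markers it turned for Hba-x at E14.5 (0.74), Hbb-y at E16.5 (0.24) and Hbb-bh1 in the interaction (-1.23). Without a filter, 7 members were called with age in KO and 1 in the interaction (Hba-a2), where 522 and 235 of all 16691 genes were called. Hba-a1 between genotypes at E14.5 was then at 0.01, and it was at 0.08 without possible doublets. In other cells, 3 members stayed called with age in WT under 5% globin, Hbb-bh1 in KO turned to 0.36 with 0 markers and 0.33 under 5% globin, Hba-x between genotypes at E14.5 turned to 0.11 under 5% globin, and DESeq2 called 1 member between genotypes at E16.5. The globin share and the 5% limit are both made from the members, so calls under them are in barcodes chosen by globin. None of the member values that turned was past the threshold in the reported fit, and the cause was not tested.

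Leaving out 1 library at a time gave 3 to 4 members called with age in erythroid barcodes of WT, 3 to 6 in KO, 5 to 7 and 4 to 6 in other cells, 0 to 1 between genotypes in other cells at E16.5, and 130 to 164 genes between embryonic-led and adult-led barcodes. The difference in embryonic beta share ran from -1.858 to -1.455 (exact permutation p up to 0.0571), the KO difference from -0.5216 to 0.03399, turning without E14.5 KO 2, the keratinocyte difference from -0.6145 to -0.3433 (p = 0.0156 to 0.0625 by exact permutation, above 0.05 without any of 5 libraries) and the erythroid share from 2.305 to 4.234 points (p = 0.0286 without E16.5 WT 1). Directions turned for values that had not been called: Hbb-bt with age in WT (-0.22 to 0.89); at E14.5 between genotypes Hba-x (-1.27 to 0.02), Hba-a1 (-0.52 to 0.43), Hbb-bh1 (-0.25 to 1.67), Hbb-bt (-0.73 to 0.38) and Hbb-bs (-0.60 to 0.22). At E16.5 they were Hba-a1 (-0.05 to 0.44), Hba-a2 (-0.02 to 0.55), Hbb-y (-0.55 to 0.02), Hbb-bt (-0.14 to 0.45) and Hbb-bs (-0.05 to 0.39), and in the interaction Hba-a1 (-0.21 to 0.75), Hbb-y (-0.19 to 1.43), Hbb-bh1 (-1.08 to 0.83), Hbb-bt (-0.19 to 0.92) and Hbb-bs (-0.03 to 0.79). In other cells they were Hba-a2 (-1.10 to 0.13) and Hbb-bh1 (-3.27 to 0.50) with age in KO and Hba-x (-2.17 to 2.94) and Hbb-y (-1.45 to 1.43) between genotypes at E16.5.

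Replicate numbers did not pair the libraries: the correlation of same-numbered deviations was -0.40 at E14.5 and -0.03 at E16.5 in erythroid barcodes and, in other cells, 0.16 at the first age, -0.33 at the second and -0.07 at P0. With the replicate number as a block, 4 members were called with age in erythroid barcodes of WT, 3 in KO and 0 between genotypes, and in other cells 7, 4, 0, 0 and, at P0, 3. Over all genes the block called 0 instead of 2 at E14.5 and 86 instead of 325 in other cells at E16.5, and a crossed pairing, added after seeing the data, called 9 and 400.

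Over all genes, the erythroid counts ran from 33 to 100 with age in WT (106 with all libraries) and from 6 to 152 in KO (110) when 1 library was left out, and from 25 to 458 and 9 to 522 under the other settings. Of the values for single members and all-gene counts under alternatives, 1550 kept direction and call or stayed within 1.5 times, 46 turned direction, 31 lost a call, 26 gained one and 72 were counts that moved further. The erythroid sums of 195 to 690 barcodes limit what can be seen of Hba-x and Hbb-y at E16.5.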

Other observations

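In some E16.5 libraries, a few barcodes held most of the embryonic globin RNA found in other cells. Among other cells, 1, 4, 4 and 0 barcodes of E16.5 WT 1, WT 2, KO 1 and KO 2 held 10 or more UMIs of Hba-x, Hbb-y and Hbb-bh1. They carried 7.35, 66.9, 90 and 0% of the 136, 266, 780 and 61 such UMIs in the other cells of each library. Embryonic UMIs in the remaining barcodes of a library are not part of those totals. In 1 barcode of E16.5 KO 1, with 11123 UMIs, 2800 genes and 0 erythroid markers, the globin UMIs were 142 of Hba-x, 59 of Hbb-bh1, 3 of Hbb-y, 19 of Hba-a1, 1 of Hba-a2, 1 of Hbb-bt and 20 of Hbb-bs. In another of that library, with 7887 UMIs and 2648 genes, they were 103 of Hba-x and 46 of Hbb-y. These barcodes were singled out after their values were seen.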
